A study of Mus musculus with 12 samples.

Results

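The 10 genes described here encode the 5 subunits of the transcription factor NF-κB (Nfkb1, Nfkb2, Rel, Rela and Relb) and 5 of its regulators. The regulators are encoded by Nfkbia, Nfkbie, Nfkbiz, Bcl3 and Tnfaip3. They are called inhibitors below as a group name, although the products of Nfkbiz and Bcl3 can also raise transcription. The 10 genes were taken by gene symbol from the count tables, where all 10 were found among 40853 symbols. RNA was sequenced from microglia, the resident macrophages of the brain, and from astrocytes, both isolated by fluorescence-activated cell sorting from digested whole mouse brain. The mice were wild type (WT) or lacked Kpna4 (knockout, KO), which encodes importin α4, a nuclear import receptor for proteins that bear a localization signal. Every animal of both genotypes was 8 to 9 weeks old and had been injected intraperitoneally with LPS, the endotoxin of Gram-negative bacteria, at 1 mg/kg 20 h earlier. Each of the 4 groups, WT and KO of either cell type, had 3 libraries, and each of the 6 animals gave 1 library per type. The WT controls had also received LPS, and untreated mice were not analysed here, so no value below measures a response to LPS. The sources used here do not say which part of Kpna4 was deleted or on which strain.

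NF-κB is a dimer of Rel-family proteins that waits in the cytoplasm bound to an IκB inhibitor. Signals from Toll-like and cytokine receptors destroy the inhibitor, importins carry the freed dimer into the nucleus, and it switches on inflammatory genes. Among the genes it is known to switch on are its own inhibitors, so the response carries negative feedback. Rela, Rel and the product of Nfkb1 serve the fast canonical branch, and Relb with the product of Nfkb2 serves the slower noncanonical branch.

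Library totals ran from 10.3 M to 14.5 M counts for microglia and from 10.7 M to 15.6 M for astrocytes, and values are given in CPM, the usual scaling of a count by its library's total. The 8 microglia markers made up 1.29% to 1.67% of the counts in microglia libraries and 0.0198% to 0.0546% in astrocyte libraries. The 8 astrocyte markers made up 1.48% to 1.98% in astrocyte and 0.0318% to 0.0698% in microglia libraries, so the sorted types carried the markers of their labels. Markers of oligodendrocytes took 0.0772% to 0.381% of the counts in astrocyte and 0.0252% to 0.169% in microglia libraries. Those of mural cells took 0.0315% to 0.0421% in astrocyte libraries, and those of border macrophages 0.0118% to 0.024% in microglia libraries. Markers of lymphocytes were at or near 0 in all libraries. Kpna4, the targeted gene, was at 84.4 ± 14.8 CPM in microglia labelled WT and 69.0 ± 9.41 CPM in microglia labelled KO (SD, n = 3 each). In astrocytes it was at 49.6 ± 8.81 and 64.4 ± 18.6 CPM (SD, n = 3 each). Neither difference passed edgeR's test (adjusted p 0.778 and 0.999), and without the deleted part these levels neither check nor support the genotype labels, so the groups are called by their labels.

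The DNA before the start of several of these genes holds the letters that NF-κB is known to bind, and 4 such stretches that are free of annotated exons are shown. RefSeq start sites (GRCm38.p6) were on hand for 7 of the 10 genes, with 10 windows of 250 bases before the start. The 10-base κB consensus, searched on both strands, was found in 5 of these 7 genes (Tnfaip3, Rel, Nfkbia, Nfkbie and Nfkb2) and was not found in the windows of Bcl3 and Rela. Counted by window, 7 of the 10 held it, among them every Nfkb2 window, against 3.9% of all 32851 windows of the same length. The other Tnfaip3 window held 0 matches. Nfkb1, Relb and Nfkbiz had no entry. Below, capitals mark matches to the κB consensus or its reverse complement, and each stretch runs 5′ to 3′ along the gene's own strand. The Tnfaip3 stretch (chr10:19015411-19015660, minus strand) and the Rel stretch (chr11:23770971-23771219, minus strand) hold 2 matches each, which overlap in Rel. The Nfkbia stretch (chr12:55492648-55492897, minus strand) and the Nfkbie stretch (chr17:45555450-45555699, plus strand) hold 1 each.

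Tnfaip3: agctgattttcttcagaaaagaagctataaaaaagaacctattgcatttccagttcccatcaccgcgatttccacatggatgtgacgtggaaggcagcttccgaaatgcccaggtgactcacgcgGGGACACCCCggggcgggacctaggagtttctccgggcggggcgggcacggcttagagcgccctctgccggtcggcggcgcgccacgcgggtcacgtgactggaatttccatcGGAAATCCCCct

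Rel: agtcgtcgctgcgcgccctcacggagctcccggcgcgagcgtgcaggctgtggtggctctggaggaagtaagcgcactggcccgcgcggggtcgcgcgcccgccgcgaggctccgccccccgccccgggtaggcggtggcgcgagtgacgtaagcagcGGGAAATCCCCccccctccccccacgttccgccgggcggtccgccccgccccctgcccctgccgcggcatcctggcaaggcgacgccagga

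Nfkbia: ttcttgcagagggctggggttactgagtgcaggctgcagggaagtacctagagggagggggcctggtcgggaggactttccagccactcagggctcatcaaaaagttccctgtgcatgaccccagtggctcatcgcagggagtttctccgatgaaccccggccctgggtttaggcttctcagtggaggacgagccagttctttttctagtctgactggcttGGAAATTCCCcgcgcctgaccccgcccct

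Nfkbie: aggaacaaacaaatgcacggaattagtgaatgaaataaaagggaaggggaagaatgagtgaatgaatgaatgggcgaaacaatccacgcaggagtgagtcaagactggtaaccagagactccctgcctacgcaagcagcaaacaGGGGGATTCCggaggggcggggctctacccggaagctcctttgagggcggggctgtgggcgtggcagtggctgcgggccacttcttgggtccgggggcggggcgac

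Counted back from the start, with -1 as the last base before it, the match nearest to the start lay at -12 to -3 in Tnfaip3 (GGAAATCCCC) and at -29 to -20 in Nfkbia (GGAAATTCCC). It lay at -91 to -82 in Rel (GGAAATCCCC) and at -106 to -97 in Nfkbie (GGGGGATTCC). Annotated exons cover 167 to 250 of the 250 bases of the 3 Nfkb2 windows, and one of them holds GGGAATTCCC at -39 to -30. These are matches of letters, and binding was not measured.

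After LPS, all 10 genes were higher in microglia than in astrocytes, and the inhibitors differed more than most subunits. All 10 passed edgeR's quasi-likelihood test at an adjusted p under 0.05 over 17294 genes, where 64.6% of genes passed in either direction and 28.2% passed as higher in microglia. In all 10 the lowest of 6 microglia libraries lay above the highest of 6 astrocyte libraries, as in 24.9% of the genes tested (46.5% did not overlap in either direction). All 10 also differed by a log2 value of 1 or more, as 20.6% of genes did with higher values in microglia. The log2 difference, microglia over astrocytes, had a median of 3.70 over the 10 genes and of -0.19 over all genes. It was largest for Tnfaip3 (5.33, SE 0.36) and Bcl3 (5.02, SE 0.35) and smallest for Rela (1.26, SE 0.18). The scaling between cell types is uncertain, since 8 abundant non-coding RNAs took 11.8% to 15.4% of a microglia library and 26.2% to 39.5% of an astrocyte library. With library totals in place of TMM factors the median over all genes was 0.09 and the median over the 10 genes 3.98. Immediate early genes, which cell dissociation can induce, summed to 6950 to 13500 CPM in microglia and 279 to 555 CPM in astrocyte libraries. The part of dissociation in the difference between cell types was not tested. In such sorted bulk samples, fewer cells that express a gene and less of its RNA per cell cannot be told apart. The p-values measure the spread between these animals.

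**Figure D1:**
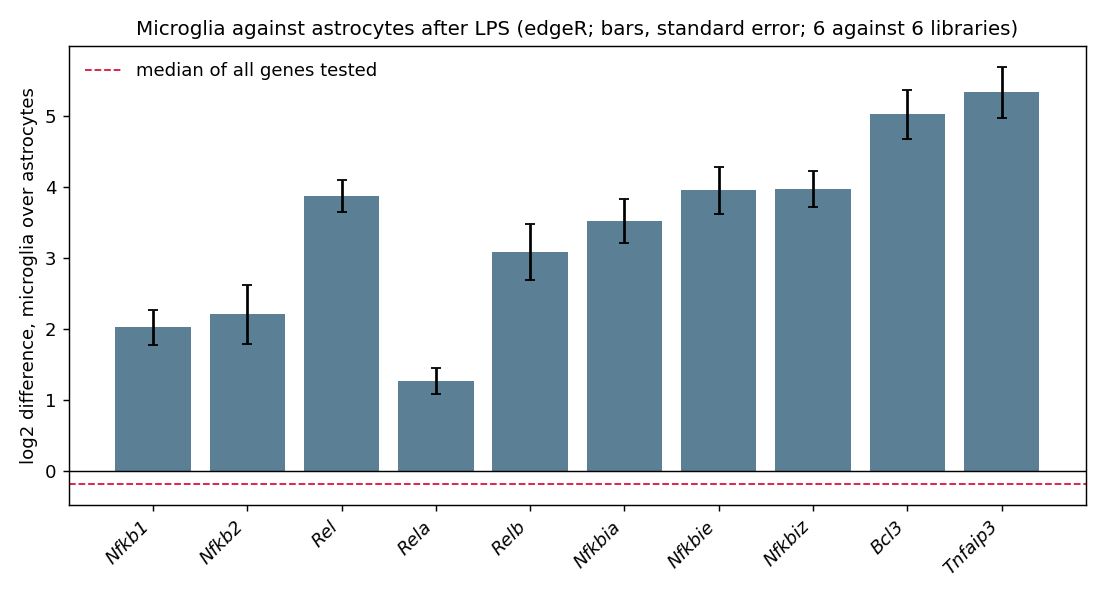
Log2 difference between microglia and astrocytes after LPS for each gene, from edgeR's fit of all 12 libraries (bars, with the standard error as whiskers), with the median of all genes tested as a dashed line at -0.19. All 10 bars lie above it, from 1.26 for Rela to 5.33 for Tnfaip3.

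**Figure D2:**
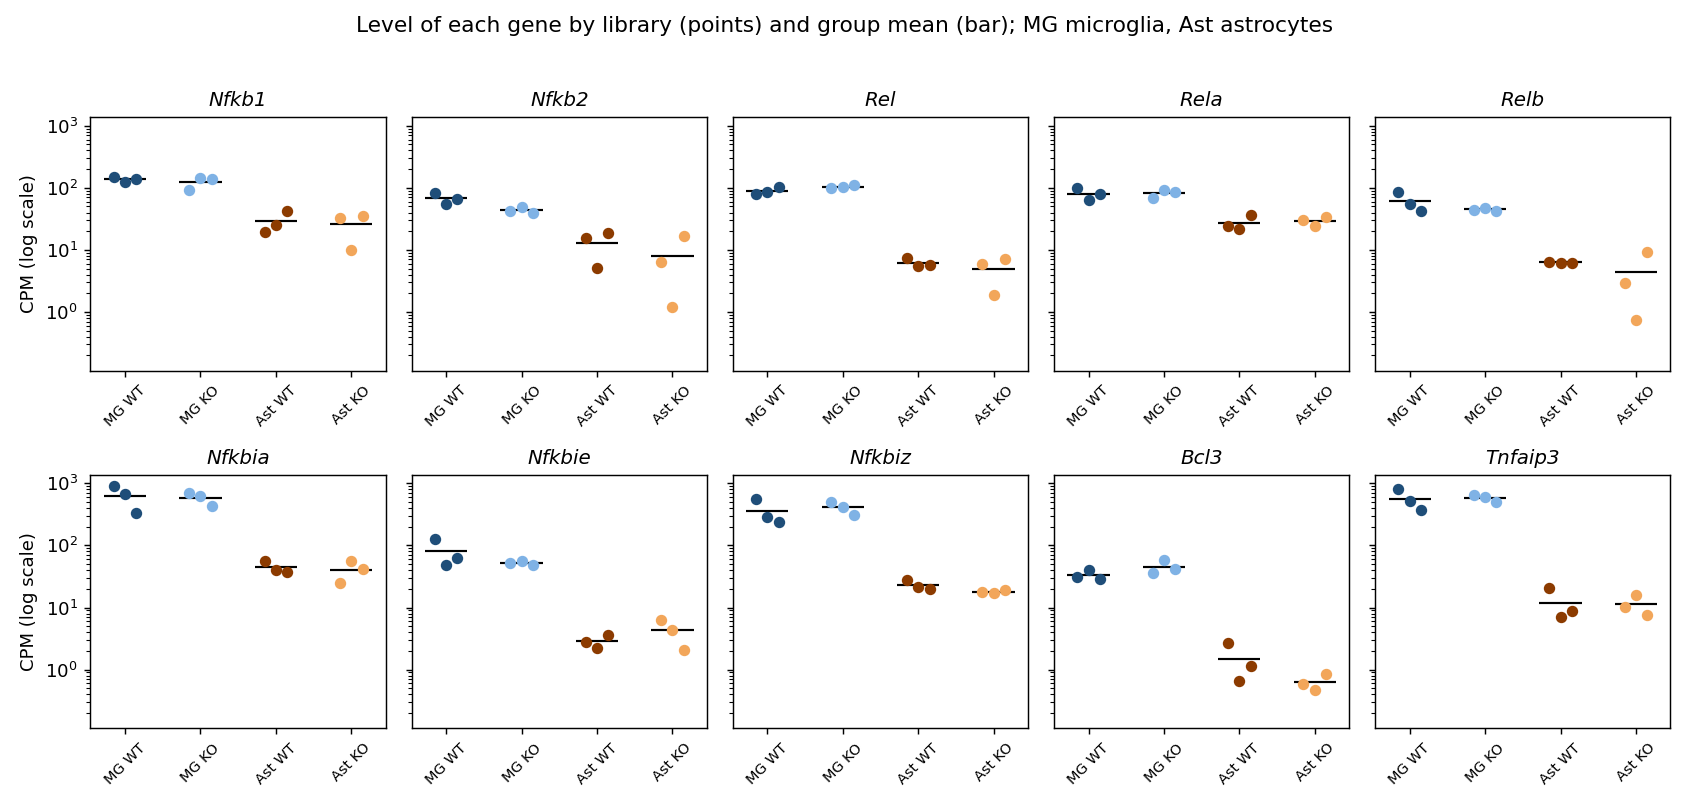
Level of each gene in each of the 12 libraries in CPM on a log axis, by cell type and genotype, with 1 point per library. Microglia points lie above astrocyte points for every gene, and the points labelled WT and KO overlap within a cell type except for Nfkb2 in microglia and Nfkbiz in astrocytes.

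Of the canonical subunits, Rela, the main activating subunit, differed least between the cell types. It was at 97.8, 63.8 and 80.7 CPM in microglia labelled WT and at 67.3, 93.0 and 86.2 CPM in microglia labelled KO. In astrocytes it was at 24.1, 21.5 and 36.5 CPM in the WT and 30.6, 24.5 and 33.5 CPM in the KO libraries. The groups of a cell type overlapped, and the difference between cell types was 2.39-fold (edgeR adjusted p 2.52e-05). Nfkb1 encodes a precursor that is cut to a DNA-binding subunit and itself holds dimers back. It was at 149, 124 and 139 CPM in WT microglia and 92.6, 143 and 141 CPM in KO microglia. It was at 19.4, 25.5 and 42.2 CPM in WT astrocytes and 32.4, 9.87 and 35.3 CPM in KO astrocytes, where replicate 2 was the lowest library of all 12. Its log2 difference between cell types was 2.02 (SE 0.25, edgeR adjusted p 5.72e-06). Rel, the c-Rel subunit known chiefly from immune cells, stood apart from both. It was at 80.3, 84.9 and 104 CPM in WT microglia and 98.2, 104 and 109 CPM in KO microglia. It was at 7.27, 5.45 and 5.67 CPM in WT astrocytes and 5.87, 1.86 and 7 CPM in KO astrocytes. Per kilobase of exon, Rel was at 10.8 to 14.6 CPM per kb in microglia beside Rela at 23.5 to 36.0, and at 0.249 to 0.973 CPM per kb in astrocytes beside Rela at 7.90 to 13.4. The difference between cell types was 14.7-fold for Rel (log2 3.87, SE 0.23, edgeR adjusted p 2.67e-09).

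The noncanonical subunits lay between these. Nfkb2, the precursor of the subunit that pairs with Relb, was at 83.5, 54.9 and 66.4 CPM in WT microglia and 42.7, 48.5 and 39.9 CPM in KO microglia. In astrocytes it was at 15.3, 5.12 and 18.5 CPM in the WT and 6.29, 1.21 and 16.5 CPM in the KO libraries, the widest relative spread of the subunits together with Relb. The log2 difference between cell types was 2.20 (SE 0.42, edgeR adjusted p 0.000328). Relb was at 85.3, 55.6 and 42.2 CPM in WT microglia and 44.5, 47.4 and 43.0 CPM in KO microglia. In WT astrocytes it was nearly level at 6.48, 6.18 and 6.22 CPM, and in KO astrocytes it ran from 0.745 over 2.98 to 9.25 CPM. The log2 difference between cell types was 3.08 (SE 0.39, edgeR adjusted p 7.03e-06). The lowest values of both genes came from replicate 2 of the KO astrocytes, with 13 counts of Nfkb2 (exact 95% Poisson interval 0.644 to 2.07 CPM) and 8 counts of Relb (0.321 to 1.47 CPM). These intervals cover counting error only. That library also had the lowest total of the 6 astrocyte libraries, at 10.7 M counts, and the highest share of abundant non-coding RNAs, at 39.5%, and the part of these in the low values was not tested.

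Of the inhibitors, Nfkbia encodes IκBα, which is degraded and made anew in each round of NF-κB activity. It was at 896, 663 and 329 CPM in WT microglia and 709, 618 and 433 CPM in KO microglia. In astrocytes it was at 57.1, 40.9 and 37.8 CPM in the WT and 25.2, 55.2 and 41.3 CPM in the KO libraries. The WT microglia libraries alone spanned the range of the KO ones, and the difference between cell types was 11.5-fold (log2 3.52, SE 0.31, edgeR adjusted p 1.43e-07). Nfkbie encodes IκBε, a slower relative. It was at 129, 48.7 and 63.3 CPM in WT microglia, where replicate 1 stood well above the rest, and 52.6, 57.1 and 48.5 CPM in KO microglia. It was at 2.81, 2.20 and 3.62 CPM in WT astrocytes and 6.38, 4.37 and 2.05 CPM in KO astrocytes, a difference between cell types of 15.5-fold (log2 3.95, SE 0.33, edgeR adjusted p 9.41e-08).

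Nfkbiz and Bcl3 encode nuclear IκB proteins, which bind subunits on DNA and can raise as well as lower transcription. Nfkbiz was at 560, 289 and 237 CPM in WT microglia and 506, 422 and 309 CPM in KO microglia. It was at 27.4, 21.5 and 20.0 CPM in WT astrocytes and 17.8, 17.2 and 19.1 CPM in KO astrocytes. Its difference between cell types was 15.7-fold (log2 3.97, SE 0.25, edgeR adjusted p 4.84e-09). Bcl3, first known from B-cell leukaemia, had the fewest counts in astrocytes. It was at 30.7, 39.7 and 28.7 CPM in WT microglia and 35.4, 59.2 and 42.3 CPM in KO microglia. In astrocytes it was at 2.66, 0.651 and 1.16 CPM in the WT and 0.595, 0.465 and 0.835 CPM in the KO libraries, from 5 to 37 counts. Tnfaip3 encodes A20, a ubiquitin-editing enzyme that shuts down signalling upstream of the IκB kinases. It was at 800, 516 and 367 CPM in WT microglia and 654, 605 and 505 CPM in KO microglia. It was at 20.3, 6.91 and 8.75 CPM in WT astrocytes and 10.2, 15.9 and 7.45 CPM in KO astrocytes. The difference between cell types was 40.2-fold for Tnfaip3 (edgeR adjusted p 9.2e-09) and 32.5-fold for Bcl3 (edgeR adjusted p 1.16e-08).

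Levels of different genes were compared per kilobase of exon, with lengths from a mouse annotation of another build than the authors'. In microglia Nfkbia led, at 209 to 568 CPM per kb over 6 libraries, followed without overlap by Tnfaip3 at 79.8 to 174 CPM per kb. Nfkbiz, at 57.2 to 135 CPM per kb, overlapped Tnfaip3. The remaining members lay between 9.45 and 52.9 CPM per kb, and neighbours in their order overlapped except Bcl3 (15.5 to 32.0) and Rel (10.8 to 14.6). In astrocytes Nfkbia also led, at 15.9 to 36.2 CPM per kb, but Rela came next, at 7.90 to 13.4 CPM per kb. Nfkb1, at 2.39 to 10.2 CPM per kb, overlapped Rela, and Nfkbiz followed at 4.16 to 6.62 CPM per kb. Tnfaip3 was at 1.5 to 4.42 CPM per kb there and overlapped Nfkb1, Nfkbiz, Nfkb2, Relb and Nfkbie. Of the summed level of the 10 genes per kb, Rela made up 2.93% to 5.95% in microglia and 12.5% to 23.4% in astrocytes. Tnfaip3 made up 15% to 18% in microglia and 2.55% to 6.22% in astrocytes. For both genes the 6 libraries of one type did not overlap those of the other. The share of Nfkbia did overlap, at 41.8% to 56.3% in microglia and 33.1% to 61.4% in astrocytes. The 5 inhibitors together made up 77.5% to 89.3% in microglia and 50.9% to 78.4% in astrocytes, where the highest value came from replicate 2 of the KO libraries.

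Each astrocyte level was also set beside the microglia level of the same animal, with the microglia markers as a yardstick. Across the 6 animals the 8 microglia markers stood in astrocyte libraries at 1.52% to 4.17% of their summed microglia level, with a median of 2.37%. Single markers ran from 1.54% for Fcrls to 9.28% for Sall1. Tnfaip3 stood at 1.34% to 2.63%, median 1.98%, and exceeded the marker value of the same animal in 2 of 6 animals. Bcl3 stood at 0.786% to 8.68%, median 1.82%, and exceeded it in 3 of 6. The astrocyte level of Tnfaip3 was thus about as low as those of microglia markers. That of Bcl3 spread from below the markers' range to above it, on 5 to 37 counts per library. Nfkbia, at 3.55% to 11.5%, and Nfkbiz, at 3.51% to 8.44%, exceeded the marker value in 6 of 6 animals. Rela (24.6% to 45.4%), Nfkb1 (6.89% to 35.0%) and Nfkb2 (2.49% to 41.4%) did so too. Rel (1.80% to 9.05%), Relb (1.57% to 21.5%) and Nfkbie (2.18% to 12.1%) exceeded it in 5 of 6. The part of microglial RNA in the astrocyte values was not tested.

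**Figure D3:**
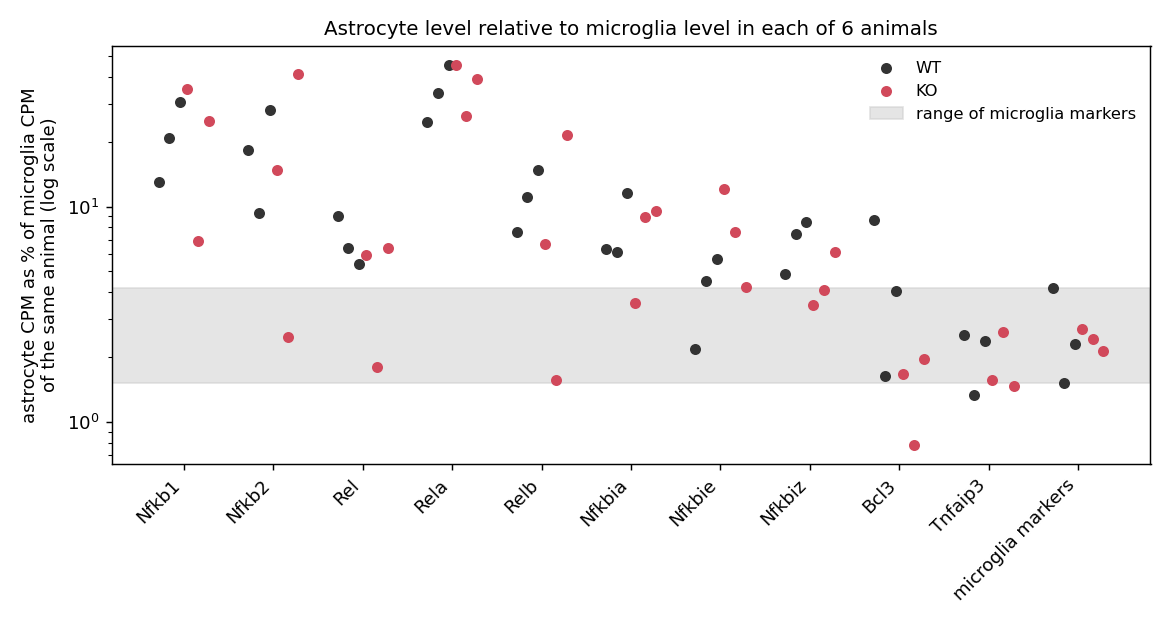
Astrocyte level as a percentage of the microglia level of the same animal, on a log axis, for each gene and for the 8 summed microglia markers (1 point per animal, 6 animals). Tnfaip3 lies around the markers' median of 2.37%, Bcl3 spreads from 0.786% to 8.68%, and Rela lies highest at 24.6% to 45.4%.

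Whether the Kpna4 genotype changed these genes was asked in each cell type alone. In microglia 0 of the 10 genes passed edgeR's test at an adjusted p under 0.05, as did 0 of 14191 genes tested (0%). DESeq2 called 0 of the 10 and 41 of the same 14191 genes. At an unadjusted edgeR p under 0.05 there was 1 of the 10, against 7.42% of all genes. This was Nfkb2, at 42.7, 48.5 and 39.9 CPM in the libraries labelled KO against 83.5, 54.9 and 66.4 CPM in those labelled WT. The log2 difference was -0.67 (SE 0.22), with an unadjusted p of 0.00939 and an edgeR adjusted p of 0.587. Nfkb2 was the only one of the 10 whose groups did not overlap in microglia, as 13.1% of all genes did in either direction and 6.57% with lower KO values. Over the alternatives its log2 difference ran from -0.80 to -0.49 and its adjusted p from 0.277 to 0.999.

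The other members of the noncanonical and inhibitor groups did not pass either. Nfkbie was at a log2 difference of -0.64 (SE 0.31, edgeR adjusted p 0.69), and without replicate 1 of the WT libraries at -0.10. Relb was at -0.47 (SE 0.26, edgeR adjusted p 0.737), and without the same library at -0.14. Bcl3 was at 0.44 (SE 0.25, edgeR adjusted p 0.737). Rel (0.18), Nfkbiz (0.16), Nfkb1 (-0.15), Nfkbia (-0.14), Tnfaip3 (0.04) and Rela (0.00) lay within 1 SE of 0. For Nfkbia the interval of the log2 difference, 2 SE to either side, ran from -0.76 to 0.49. By the sign of edgeR's log2 difference, 4 of the 10 were higher and 6 lower in KO, with a median of -0.07 against 0.00 over all genes. Rela counts as lower there, although its mean CPM was higher in KO (82.2 against 80.8). Immediate early genes, which cell dissociation can induce, summed to 13500, 6950 and 7960 CPM in WT and 11400, 12300 and 11000 CPM in KO microglia. Markers of choroid plexus and ependyma took 0.0846% to 0.213% of the counts in WT and 0.0344% to 0.0867% in KO microglia, with all 5 detected. Their part in the differences was not tested.

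**Figure D4:**
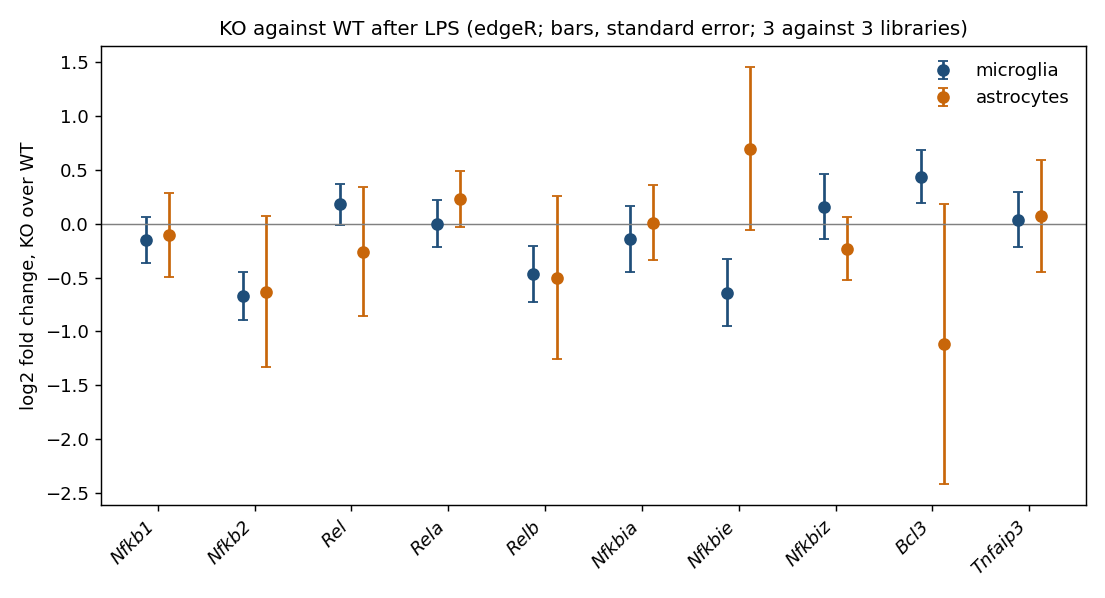
Log2 fold change of the libraries labelled KO over those labelled WT for each gene, from edgeR's fit of each cell type (points, with the standard error as bars, 3 against 3 libraries). Nfkb2 in microglia, at -0.67, lies farthest from 0 for its error, and none of the 20 values passed the adjusted threshold.

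In astrocytes 0 of the 10 genes passed edgeR's test, as did 0 of 15755 genes tested (0%). DESeq2 called 0 of the 10 and 4 of the same 15755 genes. At an unadjusted edgeR p under 0.05 there were 0 of the 10, against 2.37% of all genes, and edgeR's adjusted p was 0.999 for each. Nfkbiz was the only one whose groups did not overlap, at 17.8, 17.2 and 19.1 CPM in the KO against 27.4, 21.5 and 20.0 CPM in the WT libraries. Its log2 difference was -0.23 (SE 0.29), and 8.13% of all genes did not overlap, 5.74% with lower KO values. The low members had wide errors. Bcl3 was at -1.12 (SE 1.3), Nfkbie at 0.70 (SE 0.76), Nfkb2 at -0.63 (SE 0.70) and Relb at -0.50 (SE 0.76). Without replicate 2 of the KO libraries Nfkb2 was at -0.16 and Relb at -0.04, and without replicate 3 they were at -1.70 and -1.68. Nfkbia (0.01, SE 0.35), Tnfaip3 (0.07, SE 0.52), Nfkb1 (-0.10, SE 0.39), Rel (-0.26, SE 0.60) and Rela (0.23, SE 0.26) lay within 1 SE of 0. By the sign of edgeR's log2 difference, 4 of the 10 were higher and 6 lower in KO, with a median of -0.16 against -0.01 over all genes. Nfkbia and Tnfaip3 count as higher there, although their mean CPM was lower in KO (40.5 against 45.3, and 11.2 against 12).

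The genotype difference was also compared between the cell types, as the astrocyte minus the microglia log2 difference in 1 fit of all 12 libraries. For this contrast 0 of the 10 genes passed edgeR's test, as did 0 of 17294 genes (0%). DESeq2 called 0 of the 10 and 62 of the same 17294 genes. At an unadjusted edgeR p under 0.05 there were 2 of the 10, against 6.37% of all genes. These were Nfkbie, at 1.45 (SE 0.61, unadjusted p 0.0323, edgeR adjusted p 0.728), and Bcl3, at -1.46 (SE 0.63, unadjusted p 0.0361, edgeR adjusted p 0.748). Astrocyte libraries held 27 to 75 counts of Nfkbie and 5 to 37 of Bcl3. This fit takes the same spread per gene for both cell types. In the fit of astrocytes alone the SE was larger, at 0.76 for Nfkbie and 1.3 for Bcl3. The errors and unadjusted p-values of the contrast may thus be too small for these genes. Without the animal of WT replicate 1 the values were 0.83 for Nfkbie and -0.75 for Bcl3. The median over the 10 genes was 0.15, and over all genes 0.16.

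Within a group, the members did not all deviate alike. Deviations are given as log2 differences of a library from its group mean. In microglia, replicate 1 of the WT libraries was high for Nfkbie (0.92), Nfkbiz (0.84), Nfkbia (0.74), Tnfaip3 (0.70) and Relb (0.65), while Rel was at -0.04 there. Replicate 3 of the same group was low for Nfkbia (-0.85), Tnfaip3 (-0.57), Nfkbiz (-0.55) and Relb (-0.50), with Rel at 0.19. These 2 libraries were named because they lay far from their group mean, so the gap between them is not set against the genotype difference. The immediate early genes summed to 13500 CPM in replicate 1, 6950 CPM in replicate 2 and 7960 CPM in replicate 3. Replicate 2 lay between these 2 libraries for Nfkbia (0.11), Tnfaip3 (-0.13), Nfkbiz (-0.30) and Relb (-0.15). For Nfkbie it lay lowest (-0.67). The part of the immediate early genes in the spread was not tested. In astrocytes, replicate 2 of the KO libraries was low for Nfkb2 (-1.71), Relb (-1.50), Nfkb1 (-0.91) and Rel (-0.88), near 0 for Rela (0.01), and high for Tnfaip3 (0.84) and Nfkbia (0.79). Replicate 3 of that group lay on the other side of the mean for Nfkb2 (1.56), Relb (1.56) and Tnfaip3 (-0.63). The 3 deviations of a group sum to 0, so these values are not independent of those of replicate 2.

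**Figure D5:**
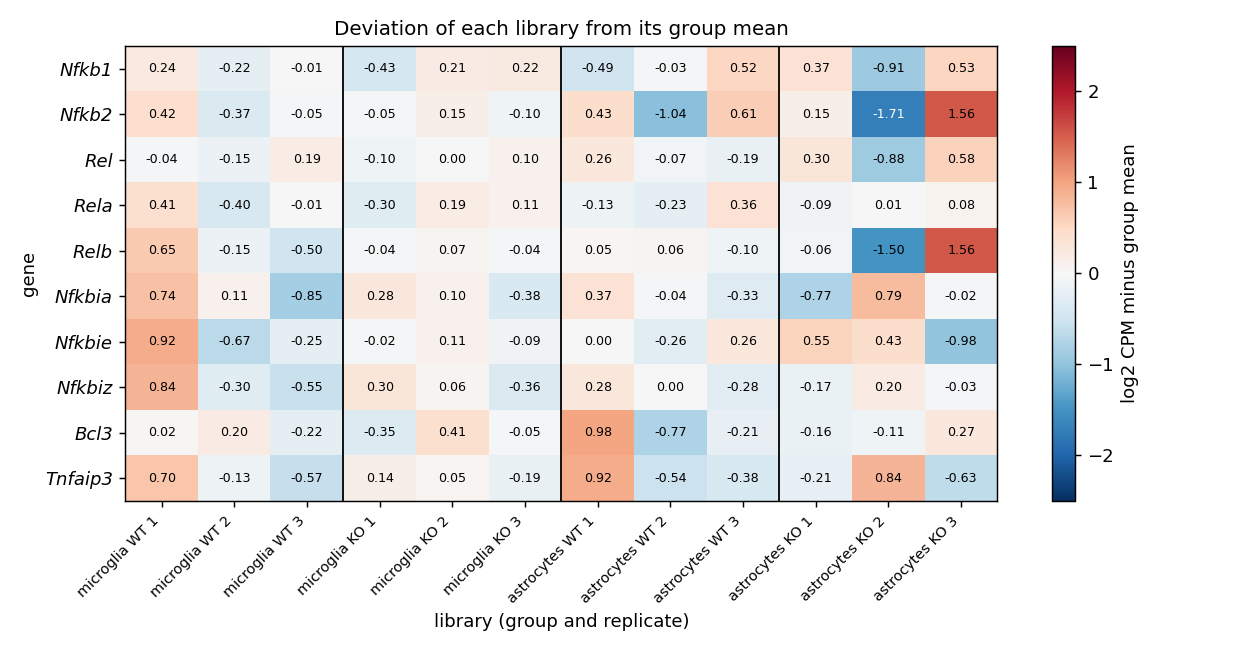
Deviation of each library from its group mean, as a log2 difference on a colour scale, for the 10 genes in the 12 libraries. Replicate 1 of the WT microglia is high for 5 genes (0.65 to 0.92), and replicate 2 of the KO astrocytes is low for Nfkb2 and Relb (-1.71 and -1.50).

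Genes that deviated most like each member were ranked by the Pearson correlation of these deviations over the 12 libraries, among 11300 genes with a mean of at least 5 CPM. The libraries share depth and animals, their deviations are centred on group means, and with so many genes the highest values are a description. Nfkb1 was nearest to Trafd1 (r 0.97, n = 12), which encodes a negative regulator of innate signalling, and Nfkb2 to Ifrd2 (0.98). Rel was nearest to Slc52a2 (0.99), followed by Ifi30 (0.97), an interferon-inducible lysosomal reductase. Relb was nearest to Klhl18 (0.98) and Rela to Tbc1d10b (0.93). Among the inhibitors, Tnfaip3 was nearest to Cyth4 (0.96), Nfkbia to Cwc25 (0.95), Nfkbiz to Dhx8 (0.95), Nfkbie to Gnb5 (0.92) and Bcl3 to Rasal3 (0.92). No member was among the 3 nearest genes of another, but some members did vary together within a cell type. Over the microglia libraries (n = 6), r was 0.97 for Nfkbiz with Tnfaip3, Relb with Tnfaip3 and Nfkb2 with Nfkbie. It was -0.78 for Rel with Nfkbia and 0.02 for Nfkbiz with Bcl3. Without replicate 1 of the WT libraries (n = 5), the first 3 pairs were at 0.84, 0.80 and 0.97. Rel with Nfkbia was then at -0.99 and Nfkbiz with Bcl3 at -0.04. Relb with Nfkbie turned from 0.85 to -0.70. In astrocytes, Nfkb1 with Rel had 0.66 (n = 6), and -0.72 without replicate 2 of the KO libraries (n = 5). How the values of the nearest genes depend on single libraries was not tested.

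The other genes of the pathway are given against the share of all genes that passed edgeR's test, which was 28.2% as higher in microglia and 64.6% in either direction. Of 20 signalling kinases and adaptors, 13 were higher in microglia and 0 lower by edgeR's test, with a median log2 difference of 0.83 against -0.19 over all genes. The number called in either direction was thus near the share over all genes, and all 13 lay in 1 direction. Myd88, the adaptor of Toll-like and interleukin-1 receptors, differed most (3.12, SE 0.21, edgeR adjusted p 1.02e-08), at 100 to 128 CPM in WT microglia and 6.18 to 12.9 CPM in WT astrocytes. Map3k14, the kinase that starts the noncanonical branch, followed (2.46, SE 0.24). Of 18 other inhibitors 17 were tested, and 12 were higher and 2 lower in microglia, against the same 28.2% and 64.6%, with a median of 1.24. Nfkbid, a nuclear IκB, was at 84.4 to 148 CPM in WT microglia and 0 to 3.96 CPM in WT astrocytes (log2 5.63, SE 0.67), and Tnfaip8l2, a brake on innate receptors, was next (4.50, SE 0.64). The 2 lower ones were Tax1bp1 (-0.82, SE 0.16) and Rnf11 (-0.73, SE 0.26), whose products are known partners of A20.

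Of 30 target genes 27 were tested, and 22 were higher and 3 lower in microglia (28.2% of all genes were called higher and 64.6% in either direction), with a median of 4.07 against -0.19 over all genes. Tnf, an inflammatory cytokine, was at 115 to 243 CPM in WT microglia and 0.407 to 6.76 CPM in WT astrocytes (log2 6.09, SE 0.63), and Ccl2, a chemokine for monocytes, differed by 5.78 (SE 0.55). In the other direction, Vcam1, a cell adhesion protein, was at 78.3 to 105 CPM in WT astrocytes and 17.6 to 32.7 CPM in WT microglia (log2 -2.36, SE 0.23). Traf1, a signalling adaptor, was at 12.2 to 19.4 and 2.36 to 4.37 CPM (-2.81, SE 0.33), and Sod2, a mitochondrial antioxidant enzyme, differed by -1.09 (SE 0.18). Tax1bp1, Rnf11, Vcam1, Traf1 and Sod2 were thus higher in astrocytes, unlike any of the 10 members.

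Between genotypes 0 genes of these 3 lists passed edgeR's test in either cell type or for the difference between them. In microglia the unadjusted p was under 0.05 for 3 of 20 signalling genes, 2 of 17 inhibitors and 3 of 27 targets, against 7.42% of all genes. Among the signalling genes the smallest belonged to Ikbke, an IκB kinase relative, at 7.90 to 13.2 CPM in the WT and 3.85 to 5.14 CPM in the KO libraries (log2 -1.33, SE 0.43, edgeR adjusted p 0.572). Traf3, which restrains the noncanonical branch, was at -0.60 (SE 0.22), Usp18 at -0.58 (SE 0.25) and Nfkbid at -0.50 (SE 0.23). Ccl5, a chemokine with the smallest p of the 3 lists, was at 7.16 to 16.4 CPM in the WT and 16.1 to 32.5 CPM in the KO libraries (log2 1.15, SE 0.36, edgeR adjusted p 0.551), and Il1a was at 0.58 (SE 0.20). The list medians were 0.08, -0.14 and -0.08, against 0.00 over all genes.

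In astrocytes the unadjusted p was under 0.05 for 0 of 20 signalling genes, 1 of 17 inhibitors and 0 of 23 targets. Over all genes it was under 0.05 for 2.37%. The inhibitor was Otulin, an enzyme that removes linear ubiquitin chains. Its levels were 16.7 to 25.5 CPM in WT and 8.10 to 12.9 CPM in KO libraries (log2 -0.94, SE 0.34, edgeR adjusted p 0.999). Myd88 was at 0.75 (SE 0.41), Traf6 at -0.43 (SE 0.32), Usp18 at -0.84 (SE 0.46), Cxcl10 at -1.07 (SE 0.64) and Lcn2 at 0.60 (SE 0.43). The list medians were -0.13, 0.09 and -0.12, against -0.01 over all genes. For the difference between cell types, 0 genes of any list had an unadjusted p under 0.05, against 6.37% of all genes. The lists held 20, 17 and 27 tested genes there. The smallest p-values per list belonged to Traf3 (0.58, SE 0.33) and Map3k14 (0.74, SE 0.46), to Otulin (-0.84, SE 0.41) and Nfkbib (0.81, SE 0.42), and to Ccl4 (-1.33, SE 0.75) and Il12b, which was listed at 0 in all WT astrocyte libraries.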

How the data were processed

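RNA-seq of sorted microglia and astrocytes was used in 12 libraries, 3 per cell type and genotype. Full-length cDNA was amplified with a SMART-Seq HT kit without molecular identifiers, per the labels' protocols. STAR 2.7.10b, RSEM 1.3.3 and GRCm39 are named in the submitters' processing notes. The authors deposited estimated counts per gene symbol, 1 table per cell type, not normalized, and 3.44% to 5.27% of nonzero values were not whole (tolerance 0.001). They were rounded before testing, and 0 columns were unmapped. Pairs of replicates differed by more than sampling noise.

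CPM are relative to library totals. Tests were made with edgeR 4.0.16 (R 4.3.3), quasi-likelihood, with TMM factors, filterByExpr (minimum count 10) and Benjamini-Hochberg adjustment over all genes tested, with a call at an adjusted p under 0.05. Genotypes were fitted in the 6 libraries of each cell type, and the contrast between cell types and the difference of genotype effects in all 12. A standard error is the log2 difference divided by the square root of F. All 10 members passed the filter in every fit, which the high microglia values alone would allow in the fit of 12. Lengths are exon unions of a GRCm38 annotation, and the promoter windows are from RefSeq (GRCm38.p6).

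Animal numbers in the labels pair each microglia library with an astrocyte library, and the paired libraries' deviations from their group means had correlations over genes of 0.002 to 0.093. The fit with the animal as a block changed no call of a member. Alternatives were DESeq2 1.42.0, its size factors, library totals, no filter, a block, removal of 8 abundant non-coding RNAs, and each animal left out. The block was the replicate number within a cell type and the animal in the fits of all 12 libraries. Named genes are all 10 members, Kpna4, per list the 2 smallest unadjusted p-values between genotypes and up to 2 largest differences per direction between cell types, and the 3 most alike genes (prior count 2); Sod2 was named after its value was seen. The members and lists were chosen with earlier results of these data known, and the immediate early genes after seeing them.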

Additional observations from a re-analysis of the deposited data

How the results depend on the processing

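Groups held 3 animals, and counts in single astrocyte libraries went down to 5 for Bcl3, 8 for Relb, 13 for Nfkb2, 20 for Rel and 27 for Nfkbie, which limits the precision of these genes there. Under every alternative run, all 10 members were called higher in microglia (median log2 difference 3.53 to 3.98), and 0 members were called between genotypes or for the difference of genotype effects. Over all genes, calls between genotypes rose from 0 in microglia to 41 with DESeq2 and 121 without the filter, in astrocytes to 4 and 17, and for the difference of effects to 62 and 160; the cause was not tested. Leaving out 1 library or animal gave 0 to 2, 0 to 1 and 0 to 6 calls.

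The replicate number pairs no WT with KO animals in the labels. Same-numbered libraries correlated at 0.134, 0.051 and 0.197 in microglia, where each library correlated best with its own number, and at -0.021, 0.049 and 0.231 in astrocytes, where they did not. With the replicate block 30 genes were called in microglia, and the signs of Rela in microglia (0.01) and Nfkbia in astrocytes (-0.07) turned. In the fits of all 12 libraries the block was the animal, not the replicate number. With it the signs of the differences of effects of Nfkb2 (-0.16) and Relb (-0.40) turned. With library totals alone the signs turned for Rela in microglia (0.02), for Nfkbia (-0.16) and Tnfaip3 (-0.10) in astrocytes, and for the difference of effects of Nfkb1 (-0.04), Nfkb2 (-0.04), Relb (-0.07), Nfkbia (-0.06) and Tnfaip3 (-0.17). For that difference they also turned for Relb (-0.01) and Tnfaip3 (-0.06) without the filter, and for Relb (-0.02) and Tnfaip3 (-0.05) without the abundant RNAs; no cause of a turned sign was tested.

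Leaving out 1 library turned signs in microglia for Rela (-0.14 to 0.17), Nfkbia (-0.45 to 0.21), Tnfaip3 (-0.20 to 0.39), Nfkbiz (-0.08 to 0.63) and Nfkb1 (-0.25 to 0.04). It did so in astrocytes for Nfkbia (-0.45 to 0.30), Tnfaip3 (-0.46 to 0.70), Nfkb1 (-0.36 to 0.23) and Rel (-0.58 to 0.06). For the difference of effects, leaving out 1 animal did so for Nfkb1 (-0.31 to 0.46), Relb (-1.29 to 0.49), Nfkb2 (-1.18 to 0.58), Nfkbia (-0.28 to 0.52) and Tnfaip3 (-0.49 to 0.34).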
